A study of Mus musculus with 6 samples.

Results

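The myelin genes of mature oligodendrocytes were examined in sorted cells of the subventricular zone (SVZ), the stem cell niche along the lateral ventricles of the adult mouse brain. The set holds 9 genes chosen by name (Mag, Mbp, Mog, Mobp, Cnp, Cldn11, Opalin, Ermn and Ugt8a), each found on 1 row of a table of 55487 genes. All 9 reached the minimum level for testing, as did 17278 genes in all. RNA-seq libraries were made from YFP-positive cells of 2 genotypes, with 3 samples of each. THC mice carried Rb(F/+), p107(+/-) and p130(F/+), and TKO mice carried Rb(F/F), p107(-/-) and p130(F/F), so that the comparison was with heterozygous and not with wild-type cells. Mice of both genotypes carried the inducible NestinCreERT2 recombinase and the R26 EYFP reporter on the mixed background C57BL/6;Sv/129, and were 6 to 10 weeks old when tamoxifen, the inducer, was first given by gavage (200 mg/kg daily over 5 days). The SVZ was taken 10 days after the last dose, and the tissue of several mice was pooled to reach at least 200000 YFP-positive cells per sample. The February batch held THC 1 and TKO 1, and the November batch held THC 2, THC 3, TKO 2 and TKO 3. YFP reports recombination under Nestin regulatory sequence and does not select one cell type.

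Oligodendrocytes wrap axons in myelin, a stack of membranes that is compacted on its cytoplasmic side and is rich in galactolipids. They arise from progenitors that first become committed, non-dividing cells and then switch on the genes for myelin proteins and lipids, and the SVZ of the adult mouse produces some of them for the nearby white matter. The transcription factors SOX10 and MYRF act on many myelin genes, SOX10 through the whole lineage and MYRF from the onset of myelination.

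The series as a whole was checked first. Libraries held 15536084 to 16961817 reads assigned to genes. Rbl1, the gene of p107, had a normalized count of 497 to 646 in THC and 14.5 to 42.0 in TKO. The stem and progenitor cell genes Nes, Sox2 and the neuroblast gene Dcx were present in every library, at 373 or more. They were not level between genotypes. On the log2 scale in limma, Nes was 1.21 higher in TKO (adjusted p = 6.7e-05) and Dcx 0.73 lower (adjusted p = 0.0022). Sox2 was not called (0.37, adjusted p = 0.056). No label says which mice entered which pool, so p-values measure the spread between these pooled samples, which may be partly technical.

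Sequence upstream of the start site is shown for 4 of the genes, because these are the ones whose window held letters of a motif of SOX factors or MYRF, which are central to the lineage. The sequences are from RefSeq (GRCm38.p6), which had a window of 250 bases before to 50 bases after the start site for 8 of the 9 genes. They end before the first annotated transcript start, and run 5′ to 3′ on the strand of the gene. Capitals mark the SOX core ACAAAG (or CTTTGT on the other strand) and the MYRF letters CTGGCAC (or GTGCCAG). The stretches are chr7:30914923-30915172 (minus strand) for Mag, chr19:41077114-41077363 (minus) for Opalin, chr11:100574689-100574903 (plus) for Cnp and chr9:120149492-120149706 (plus) for Mobp.
Mag: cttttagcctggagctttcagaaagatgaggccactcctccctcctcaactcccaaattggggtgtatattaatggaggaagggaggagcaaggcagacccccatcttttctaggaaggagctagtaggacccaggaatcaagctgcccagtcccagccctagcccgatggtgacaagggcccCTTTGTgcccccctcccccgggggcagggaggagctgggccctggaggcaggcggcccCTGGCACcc
Opalin: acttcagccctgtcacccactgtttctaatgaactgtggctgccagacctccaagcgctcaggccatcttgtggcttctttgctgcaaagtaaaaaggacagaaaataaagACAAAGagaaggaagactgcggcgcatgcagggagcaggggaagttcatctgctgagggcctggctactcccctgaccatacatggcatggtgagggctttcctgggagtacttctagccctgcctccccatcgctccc
Cnp: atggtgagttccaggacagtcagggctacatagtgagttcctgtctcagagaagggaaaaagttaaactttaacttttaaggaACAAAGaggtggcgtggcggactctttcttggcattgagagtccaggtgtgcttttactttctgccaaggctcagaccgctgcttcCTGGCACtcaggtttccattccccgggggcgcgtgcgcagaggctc
Mobp: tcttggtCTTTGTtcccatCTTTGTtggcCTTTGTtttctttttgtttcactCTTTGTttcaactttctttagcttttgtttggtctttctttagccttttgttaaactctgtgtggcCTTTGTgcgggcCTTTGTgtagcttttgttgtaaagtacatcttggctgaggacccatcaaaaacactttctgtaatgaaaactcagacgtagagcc

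The SOX core was present in a window of 4 of the 8 genes and in 18.7% of 32851 promoter windows of the same length. A gene was counted if any of its windows held a match, and Mag had several, whereas the shares are over single windows. The MYRF letters were present for 3 of the 8, Mag, Opalin and Cnp, and in 5.01% of all windows. In Mag the SOX core began 67 bases and the MYRF letters 9 bases before the most upstream RefSeq start site. In Cnp they began 167 and 81 bases before the RefSeq start site, which lies downstream of the GENCODE start where the printed stretch ends. In Opalin a SOX core began 139 bases before the RefSeq start site, and a further one and the MYRF letters lay behind it and are not printed. The Mobp stretch held 6 copies of CTTTGT and no MYRF letters. The letters TTTCGCG of E2F sites, TTTGAA of the cell cycle homology region and TATAAA of the TATA box, on either strand, were in none of the 8 windows and in 0.849%, 17.9% and 13.6% of all windows. No matches in the windows of these genes overlapped. A match describes the letters and shows no binding.

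All 9 myelin genes were lower in TKO than in THC, by 2.70-fold for Cnp to 5.85-fold for Mag as ratios of the group means. Each fell at an adjusted p under 0.05 (limma with Benjamini-Hochberg adjustment over all genes tested), where 13.6% of all genes tested fell and 27.9% changed in either direction. The median log2 change of the 9 was -2.12, beside a median of 0.00 over all genes. For each of the 9, the highest TKO value was under the lowest THC value, which was the case for 19.5% of genes tested. Together the genes took 0.211 to 0.216% of the reads of the THC libraries and 0.05003 to 0.0723% of the reads of the TKO libraries. In sorted pools, fewer oligodendrocytes and less myelin RNA per oligodendrocyte cannot be told apart.

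**Figure D1:**
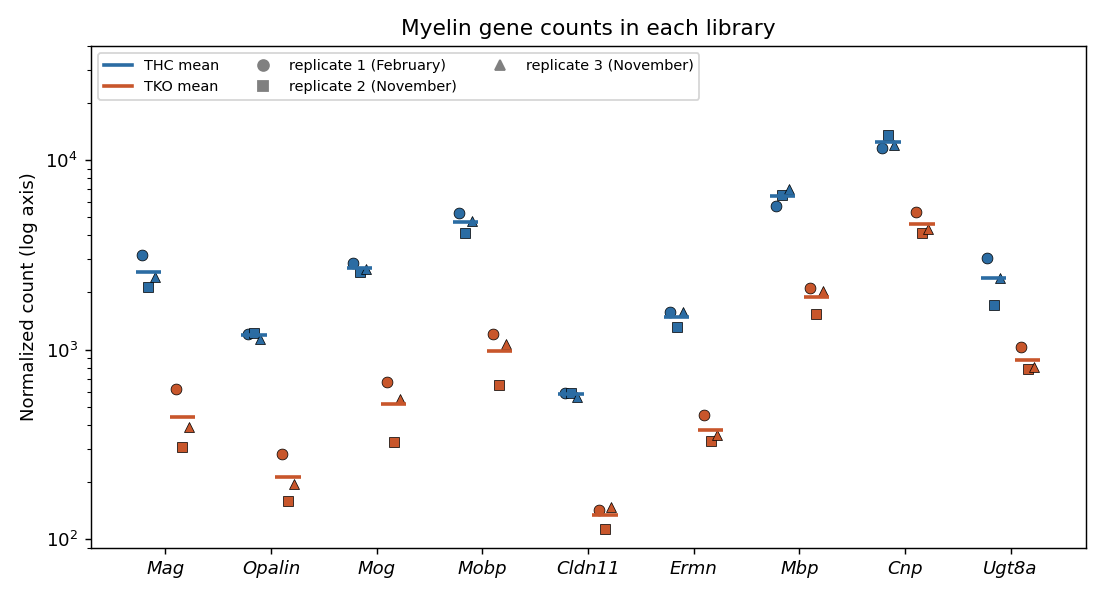
Normalized counts (log axis) of the 9 myelin genes in each library, with THC in blue, TKO in orange, symbols for the replicate number and a line at the mean of each genotype. Each gene has its 3 TKO values below its 3 THC values, and the TKO 2 square is the lowest orange symbol for all 9.

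Mag, Opalin and Mog, genes of membrane proteins of the sheath, had the largest changes. Mag (chromosome 7, 30899176 to 30914873, minus strand, GRCm38) encodes the myelin-associated glycoprotein, which lies in the innermost membrane and faces the axon. Its normalized counts were 3147, 2131 and 2403 in THC 1 to 3 and 618, 304 and 392 in TKO 1 to 3. THC 1 and TKO 1 of the February batch were the highest of their genotypes, and the genotypes were far apart. Mag fell by 2.59 on the log2(value + 1) scale (SE 0.14, adjusted p = 9.6e-07), the 51st most negative change of the genes tested.

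Opalin (chromosome 19, 41061710 to 41077113, minus strand) encodes a glycoprotein of the inner loop and the paranodes, the edges of the sheath. Its counts in THC were 1206, 1216 and 1136, against 281, 158 and 196 in TKO. The THC values were close together (SD 43.6 around 1186), and the TKO values differed more in proportion (SD 63.0 around 212). The fall was 2.52 (SE 0.17, adjusted p = 2.2e-06). Mog (chromosome 17, 37010743 to 37023398, minus strand), whose product is on the outermost surface, had counts of 2868, 2577 and 2665 in THC, and of 670.5, 323 and 549 in TKO. All 3 TKO libraries were low, TKO 2 most of all, and the fall was 2.45 (SE 0.19, adjusted p = 3.8e-06). Cldn11 (chromosome 3, 31149920 to 31164324, plus strand) encodes the claudin that seals the layers of central myelin. Its counts were 590.4, 591 and 559 in THC and 142, 113 and 147 in TKO, with little spread within a genotype. It fell by 2.12 (SE 0.18, adjusted p = 5.8e-06).

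Of the genes of the cytoplasmic side, Mobp fell more than Cldn11, and Ermn and Mbp fell less. Whether the size of the fall goes with the place in the sheath was not tested. Mobp (chromosome 9, 120149707 to 120181484, plus strand), a small basic protein of compact myelin, reached 5236, 4134 and 4758 in THC but 1207, 649 and 1075 in TKO. It fell by 2.31 (SE 0.17, adjusted p = 3.7e-06), close to the change of Mog. Mbp, on chromosome 18, encodes the basic protein that holds the cytoplasmic faces of the membrane together. THC libraries held 5752, 6511 and 6999, and TKO libraries 2105, 1545 and 2033, and here THC 1 was the lowest THC library. Mbp fell by 1.77 (SE 0.15, adjusted p = 6.7e-06). Ermn (chromosome 2, 58045113 to 58052864, minus strand), an actin-binding protein of late differentiation, had THC counts of 1569, 1318 and 1579 and TKO counts of 449.9, 329 and 353, with TKO 1 above the other TKO libraries. It fell by 1.99 (SE 0.14, adjusted p = 2.5e-06).

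Cnp and Ugt8a had the smallest changes of the set. Cnp (chromosome 11, 100574904 to 100591729, plus strand) encodes an enzyme-related protein that keeps channels of cytoplasm open in the sheath, and it is known to be expressed early in the lineage. It counted 11608, 13593 and 11967 in THC, and 5309, 4142 and 4323 in TKO, so it stayed the most abundant of the 9 in every library. The fall was 1.44 (SE 0.15, adjusted p = 2.3e-05). Ugt8a (chromosome 3, 125865271 to 125938619, minus strand) encodes the enzyme that makes galactosylceramide, the main galactolipid of myelin. THC libraries had 3051, 1712 and 2390.4, whereas TKO libraries had 1029, 789.9 and 812. Relative to the mean, THC varied most for this gene of the 9 (SD 28.1% of the mean), with THC 1 well above THC 2, and the fall was 1.41 (SE 0.14, adjusted p = 2.3e-05). The kit kept no strand. By the annotation, 154 bases of the exons of Cnp overlap Dnajc7 and 237 of those of Ermn overlap Galnt5, both on the opposite strand. For Mobp, 79 bases overlap Gm38642 on the same strand. Reads at these overlaps cannot be told apart.

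**Figure D2:**
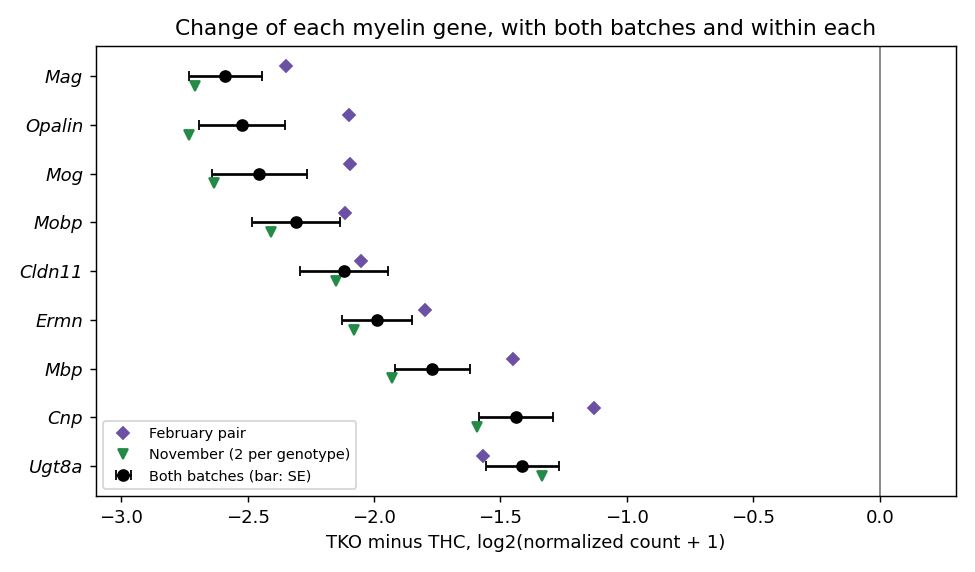
Log2 change (TKO minus THC) of each myelin gene from the fit with both batches (black, bar: SE), within the February pair (diamond) and within November (triangle). All values lie between -1.13 and -2.73, and November has the larger fall for every gene but Ugt8a.

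The fall was seen within each batch. In the February pair, with 1 sample per genotype and so no test, the log2 changes were -1.13 (Cnp) to -2.35 (Mag). In November, with 2 samples per genotype, they were -1.34 (Ugt8a) to -2.73 (Opalin). The difference between batches was tested as an interaction of batch and genotype over all genes, where 0.341% of genes passed. None of the 9 passed in limma (0 at an unadjusted p under 0.05, beside 6.97% of all genes tested, and 0 called by edgeR or DESeq2). With 1 sample per genotype in February, a lack of calls does not show that the batches agree. The largest difference between batches was that of Opalin, at -0.64 (SE 0.32, adjusted p = 0.78). Within TKO, TKO 2 was the lowest library for all 9 genes and TKO 1 the highest for 8, with TKO 3 highest for Cldn11. Within THC no library had such a place, and THC 2 was lowest for 5 and highest for 3.

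Ratios between members were compared within libraries, for the 36 pairs, of which 22 had genotypes that did not overlap. The share among pairs of other genes was not computed, and the 36 pairs share genes and libraries, so this count has no background. Mag was 27.1, 15.7 and 20.1% of Cnp in THC and 11.6, 7.34 and 9.07% in TKO, as ratios of normalized counts within a library. Opalin was 10.4, 8.95 and 9.49% of Cnp in THC and 5.29, 3.81 and 4.54% in TKO. For both ratios the genotypes did not overlap, with a difference of -1.15 for Mag and -1.08 for Opalin on the log2 scale. These pairs were picked by size of change, Mag and Opalin as the most changed members and Cnp as the least changed but for Ugt8a. Mag against Ugt8a, the most and the least changed member, gave -1.18. For each of these pairs the exact permutation test (two-sided, n = 3 per genotype) gave p = 0.1, and 0.16 adjusted over the 36 pairs of members. That p is the smallest this shuffle over all libraries allows, and the shuffle took no account of batch. No difference between the sizes of the changes could therefore pass the test. Mag against Opalin gave -0.07 and Cnp against Ugt8a gave -0.02 (exact p = 0.8 and 1), with overlapping genotypes in each case. The size of such a ratio depends on the lengths of both genes, and its difference between genotypes does not.

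**Figure D3:**
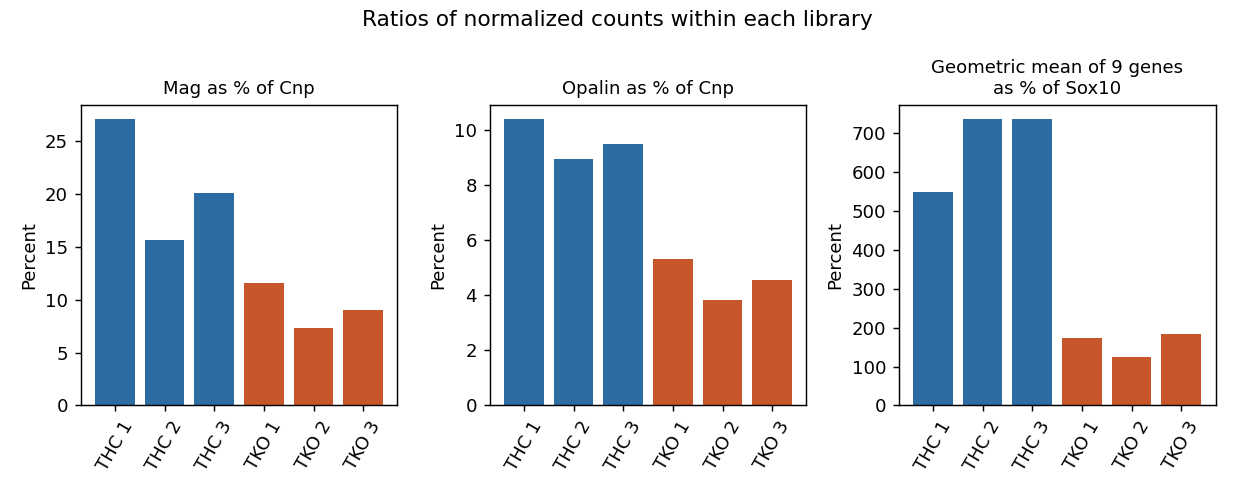
Mag and Opalin as a percentage of Cnp, and the geometric mean of the 9 genes as a percentage of Sox10, from normalized counts in each library (bars; axes start at 0, THC blue, TKO orange). Each of the 3 TKO bars is lower than each of the 3 THC bars in all 3 panels.

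Levels were ordered per length, as RPKM (reads per kilobase of merged exon, scaled to the assigned reads of each library). In THC, Cnp was highest at 211 ± 19.8 (SD, n = 3) and Mog next at 98.4 ± 4.18, each without overlap with the next gene. Mbp (47.1 ± 5.22), Mobp (42.6 ± 4.56), Mag (38.9 ± 7.46), Ugt8a (32.6 ± 8.76), Ermn (25.4 ± 2.43) and Opalin (25.0 ± 0.806) followed, and each neighbouring pair of these overlapped. Cldn11 was lowest at 19.3 ± 0.495, below every value of Opalin. In TKO the order began with Cnp (77.7 ± 10.7), Mog (18.6 ± 6.56) and Mbp (13.8 ± 2.49). Ugt8a came next (11.9 ± 1.78), above Mobp (8.82 ± 2.75) and Mag (6.63 ± 2.45), which were above it in THC. Below Cnp, all neighbours overlapped in TKO. The merged length of Mbp counts exons of long transcripts used outside myelin, so its level per length is a lower estimate.

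Other genes of myelin and of mature oligodendrocytes were counted from 5 lists by role. Of 44 genes, 33 fell and 3 rose, with a median of -1.56, where 13.6% of all genes tested fell and 14.3% rose. All 11 genes of the membrane and junction list fell, with a median of -1.86. Tspan2, a tetraspanin, fell by 1.79 (SE 0.13, adjusted p = 2.7e-06). Mal, a protein of lipid rafts, fell by 2.38 (SE 0.17, adjusted p = 3.0e-06), with counts of 5524 to 5909 in THC and 789.9 to 1344 in TKO. All 10 genes of the list of enzymes and secreted proteins fell as well (median -1.28), among them Trf, the iron carrier transferrin, by 1.71 and Aspa, which breaks down N-acetylaspartate, by 1.86. The smallest of these falls was that of Car2, named after its values were seen (0.37, adjusted p = 0.048 in limma, with overlapping genotypes). The count that fell in this list was 7 to 10 under other settings and 8 to 10 with 1 library left out. Of 8 axon-glia contact genes 5 fell and none rose (median -1.30). Nfasc, the paranodal neurofascin, fell by 1.85 and Cntn2, an adhesion protein beside the paranode, by 1.75.

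The lipid and cytoskeleton lists were split. Of 6 galactolipid genes, 3 fell and 1 rose (median -0.41), where 13.6% of all genes tested fell and 14.3% rose. Fa2h, which hydroxylates the fatty acids of myelin lipids, fell by 2.16 (SE 0.17, adjusted p = 4.6e-06), and Gal3st1, which makes sulfatide from the product of Ugt8a, fell by 1.64 (SE 0.26, adjusted p = 0.00057). Galc, the lysosomal enzyme that degrades the product of Ugt8a, rose by 0.64 (SE 0.13, adjusted p = 0.0026), from 602 to 796 in THC to 1011 to 1234 in TKO. Of 9 cytoskeleton genes, 4 fell and 2 rose (median -0.26). Septin4, a septin of the sheath, fell by 1.84 and Tubb4a, a beta-tubulin abundant in oligodendrocytes, by 1.92. Anln, which encodes anillin, a scaffold of septins in myelin and of the ring of dividing cells, rose by 1.49 (SE 0.13, adjusted p = 7.9e-06), and Septin8 rose by 0.55 (adjusted p = 0.0066). Galc, Anln and Septin8 were picked after their values were seen, as the 3 that rose. Septin2 overlaps a second gene model of the same name in the annotation, so its count is uncertain.

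**Figure D4:**
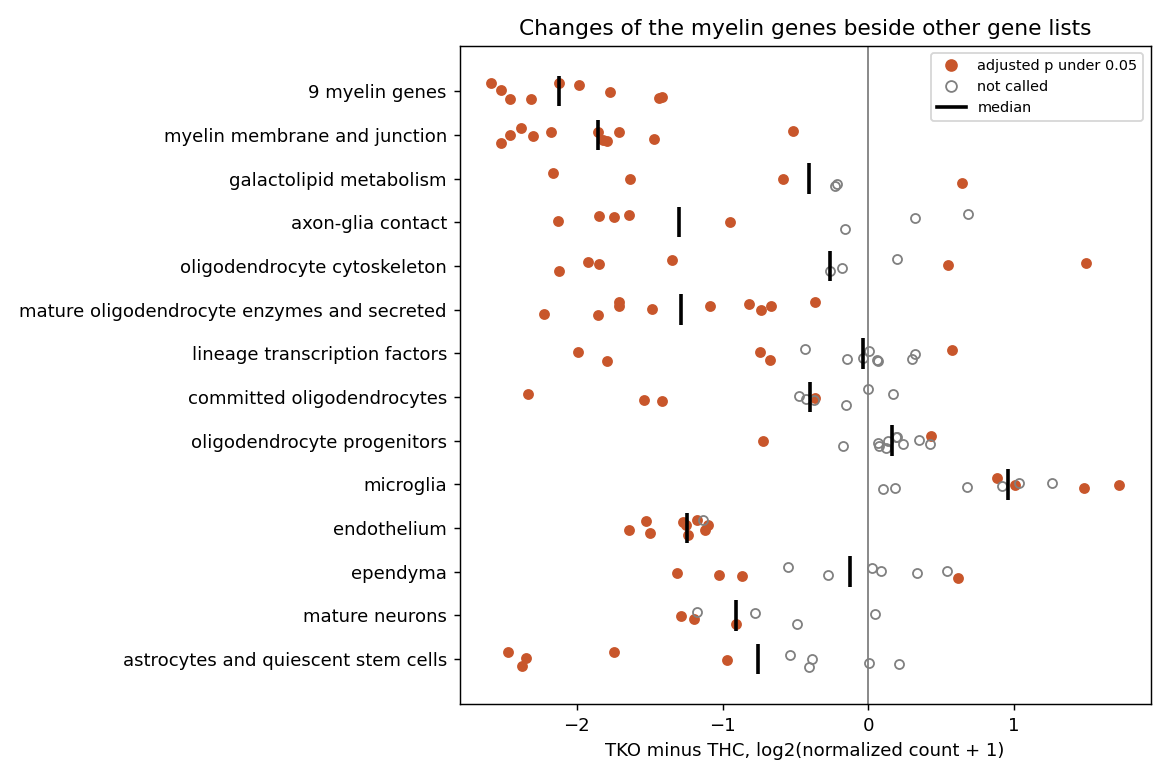
Log2 change (TKO minus THC) of every tested gene in 14 lists, with filled points for an adjusted p under 0.05, open points for the rest and a black line at the median of each list. All 9 myelin genes are filled and lie left of 0, the progenitor list has a median of 0.16, and the Schwann cell list, with 1 tested gene, is not drawn.

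Transcription factors of the lineage, early and late, did not move as a block. Of 13 lineage transcription factors, 4 fell and 1 rose (median -0.03, February -0.64, November 0.10), where 13.6% of all genes tested fell and 14.3% rose. Myrf, the activator of myelin genes, had counts of 517, 442 and 282 in THC against 159, 90.3 and 105 in TKO, and fell by 1.80 (SE 0.21, adjusted p = 6.9e-05). Nkx6-2, a homeodomain factor of mature oligodendrocytes, fell by 1.99 (SE 0.36, adjusted p = 0.0016), and Myt1 and St18, related zinc finger factors, fell by 0.74 and 0.67. Sox10 counts were 513, 334 and 359 in THC, against 448, 399 and 348 in TKO, so the genotypes overlapped, and its fitted change was 0.00 (SE 0.16, adjusted p = 0.99 in limma). Olig1 (-0.03), Sox8 (-0.43), Nkx2-2 (0.32), Zfp488 (0.07), Zfp24 (0.30), Zfp536 (-0.15) and Tcf7l2 (0.06) did not pass. Olig2, which acts from the progenitor stage on, was 0.57 higher (adjusted p = 0.048 in limma). The rise was in November (0.91) and not in the February pair (-0.10), a difference with an unadjusted p of 0.0057 and an adjusted p of 0.27 in the limma interaction test. That call ended when THC 2 (change 0.38, adjusted p = 0.19), THC 3 (0.57, 0.091), TKO 2 (0.46, 0.17) or TKO 3 (0.49, 0.18) was left out. The geometric mean of the 9 myelin genes was 547 to 735% of Sox10 in THC and 125 to 183% in TKO.

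Of 10 genes of committed oligodendrocytes, 4 fell and none rose (median -0.40), beside 13.6% of all genes tested that fell and 14.3% that rose. Enpp6, a choline phosphodiesterase of newly forming oligodendrocytes, fell by 2.33 (SE 0.17, adjusted p = 2.9e-06), from 520 to 646 in THC to 104 to 119 in TKO, and Neu4, a sialidase, fell by 1.54. Of 12 progenitor genes, 1 rose and 1 fell (median 0.16), where 14.3% of all genes tested rose and 13.6% fell. In a list of 12 genes, these counts cannot be told apart from those shares. The batches had opposite signs for this list (February median -0.44, November median 0.41), and Pcdh15, named for this result, passed the limma interaction test (-1.02 and 0.69, adjusted p = 0.049). Cacng4, a subunit linked to glutamate receptors, was 0.43 higher (adjusted p = 0.022), and Cspg5, a proteoglycan, was 0.72 lower (adjusted p = 0.011). Without THC 1 or without TKO 1, 3 progenitor genes rose and none fell. The call of Cacng4 ended without THC 1, THC 2, TKO 1 or TKO 2 (adjusted p = 0.056 to 0.093), and that of Cspg5 without THC 1, THC 2 or TKO 1 (0.050 to 0.075). The progenitor receptor gene Pdgfra, named after its values were seen, counted 7490 in THC 1 and 5369 in TKO 1 of February, and 1469 to 3356 in the November libraries (change 0.42, adjusted p = 0.21).

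Markers of other cells were counted too, beside 13.6% of all genes tested that fell and 14.3% that rose. Schwann cells, which make the myelin of peripheral nerves and share Mbp, Mag and Cnp, had few marker reads. Pmp2 was at 0 in all 6 libraries, Ncmap was at 5.37 to 12.3, and Prx, the 1 gene of the list that could be tested, was higher in TKO (1.02, adjusted p = 0.028, and not called when any library but THC 2 was left out). Of 10 endothelial genes, 9 fell (median -1.24, and 2 fell where the fit had no intensity trend), among them Cldn5, a claudin of the vessel wall, by 1.64 and the VEGF receptor gene Flt1 by 1.17, with summed normalized counts of 6974 to 15845 in THC and 3122 to 4352 in TKO. Of 7 tested mature neuron genes (of 8), 3 fell and none rose (median -0.91, sums 1619 to 2498 and 967 to 1037). The genes of the synaptic vesicle protein Syt1 and of its partner in release Snap25 fell by 1.28 and 0.91. Of 10 genes of astrocytes and quiescent stem cells, 5 fell and none rose (median -0.76, sums 132313 to 231306 and 102532 to 129932), and without THC 3 it was 8 that fell. The amino acid transporter gene Slc7a10 fell by 2.47 and the neurotensin receptor gene Ntsr2 fell by 2.38, both within the range of the 9 myelin genes. Of 10 microglial genes, 4 rose and none fell (median 0.96, sums 1014 to 4361 and 1432 to 6481), and of 10 ependymal genes, 3 fell and 1 rose (median -0.12, sums 5815 to 18607 and 8074 to 10485). The ependymal list also had opposite signs by batch (February median 0.89, November median -0.73), and 6 of the 10 genes passed the interaction test. Ccdc39, of motile cilia, rose by 0.61 and Rarres2, the gene of chemerin, fell by 1.02 over both batches, but by 0.02 in the February pair. Neither was called in limma with no trend (adjusted p = 0.053 and 0.10). Rarres2 was also not called with no batch term (0.054) or with DESeq2 (0.052). The call of Ccdc39 ended without THC 1 or TKO 1 (adjusted p = 0.057 and 0.061). The microglial genes Fcrls and Cd68, a lysosomal protein gene, rose by 1.48 and 0.88, and neither was called with no batch term (adjusted p = 0.36 and 0.32). The count of microglial genes that rose was 2 without TKO 2, and 6 without THC 2 or TKO 3. The count of ependymal genes that fell was 6 without THC 1 or TKO 1, and 1 without any other library. No gene of these lists other than those of Schwann cells was at 0 in any library. For comparison, the summed counts of the 9 myelin genes were 33786 to 35028 in THC and 8354 to 11811 in TKO. The part of these cells in the fall of the myelin genes was not tested.

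The genes whose profile over the 6 libraries was most like the mean of the 9 were found among 11896 tested genes with a mean normalized count of at least 100, by the root-mean-square difference of centred log2 values. Slc46a1, a folate transporter, was closest (0.09). Its counts were 600.4, 567 and 517 in THC and 169.8, 94.6 and 131 in TKO. Ehd3, of endocytic recycling, followed at 0.10, then Map6d1 (0.13), Aox1, an aldehyde oxidase (0.16), the sphingosine phosphate receptor gene S1pr5 and Septin4 (0.17 each) and Fkbp14, a prolyl isomerase gene (0.17). S1pr5 belongs to the membrane and junction list and Septin4 to the cytoskeleton list. The members themselves were 0.10 (Ermn) to 0.39 (Ugt8a) from their own mean. The measure follows mainly the difference between the genotypes, since that is the largest part of each profile.

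In the authors' deposited table, all 9 genes were also lower in TKO. Its log2 fold changes were -1.43 for Ugt8a to -2.58 for Mag, with adjusted p of 7.5e-17 for Ugt8a and 1.1e-53 for Mag, which had the 12th smallest p of the table.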

How the data were processed

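Sequencing libraries were made from sorted SVZ cells with the SMART-Seq v4 and Nextera XT kits, per the labels' protocols, from at least 35 ng of RNA. HISAT2, featureCounts of Subread, DESeq2 and the build GRCm38 are named by the submitters' processing notes. Their versions and the annotation were not stated in the sources used. The authors' deposited table holds 1 normalized count per gene and sample, a signal scaled by 1 factor per sample. It also holds, per the file headers, the log2 fold change, p-value, adjusted p-value, Wald score and weight score of the authors' own comparison. Values were whole multiples of a step for 100% of values (within 0.001 of a read in each of the 6 columns), which gave reads per library.

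Genotype was tested with limma 3.58.1 (R 4.3.3) on log2(value + 1) with an intensity trend and a batch term, over 17278 genes with a normalized count of at least 10 in at least 3 samples. The plan foresaw this test for normalized values. Alternatives included edgeR 4.0.16 and DESeq2 1.42.0 on the recovered reads. The test was run on simulated data with no batch effect and the same dispersion for all genes, so that check does not cover the batches or the spread of these data. Exon lengths and positions are from GENCODE M21 (GRCm38).

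The members and lists were chosen with earlier results of these data known. Genes named are the 9 members, 2 per list by adjusted p, all lineage factors, the 8 most similar profiles, and any named in the text as chosen later. Of the similar profiles and of the Schwann cell list, 1 gene each is not reported here. Libraries of one genotype differed beyond sampling noise (chi-square over its degrees of freedom, 15.5 to 44.5).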

Additional observations from a re-analysis of the deposited data

How the results depend on the processing

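Each of the 9 myelin genes stayed lower in TKO and past the threshold under all 16 alternatives (144 of 144 values), with log2 changes of -1.30 to -2.73 and adjusted p of at most 0.0086, and their median was -2.001 to -2.22. The alternatives were no batch term, a replicate block, other pseudocounts (0.5 and 5), no filter or a filter at 50, TMM scaling, no trend, edgeR, DESeq2, and leaving out each library. Over all genes, 2345 fell, and 1484 with no trend. The replicate number was not taken as a pairing, and only replicate 1 stands for a batch. Deviations of same-numbered libraries correlated at 0.23, -0.11 and 0.14, and those of other pairs of libraries at -0.28 to 0.18. With so few libraries these values cannot exclude a pairing. With the replicate block 1922 genes fell and 2147 rose, and all 9 members were called. Interaction calls were 59, and 97 with a pseudocount of 5, 1712 with no filter, 105 with a filter of 50, 0 with no trend (limma), 135 with DESeq2 and 165 to 378 leaving out a November library. None of the 9 was among them.

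Sox10 had no stable sign (-0.0104 with TMM scaling, -0.0107 with edgeR, -0.0804 to 0.105 leaving out a library), nor had Olig1 (-0.27 to 0.27), Nkx2-2 (-0.00082 to 0.85), Zfp488 (-0.12 to 0.36) and Tcf7l2 (-0.0539 to 0.175). The rise of Olig2 also ended with no batch term, the replicate block, no filter, TMM scaling, no trend and edgeR. Septin8 was not called with no trend. Calls varied most in the lists of other cells: higher microglial genes numbered 0 to 7, lower ependymal genes 0 to 6, higher progenitor genes 0 to 3, lower progenitor genes 0 to 1, lower endothelial genes 2 to 10 (2 with no trend), lower astrocyte and stem cell genes 5 to 8. Prx was not called without any 1 of 5 libraries, THC 2 being the exception. Without THC 1, and without TKO 1, 1 axon-glia gene rose.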
